A study of Mus musculus with 3 samples.

Results

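Eosinophil-like cells were sought among mouse bone marrow progenitors as cells chosen by 1 measured value: they carried 10 or more unique molecular identifiers (UMIs, each marking 1 captured transcript) of Prg2, the gene of eosinophil major basic protein. The rule found 59 of 11132 cells (0.530%, exact 95% binomial interval 0.404 to 0.683%), 22 of 4336 female and 37 of 6796 male cells. Every cell came from wild-type C57BL/6 marrow, in a sorted fraction labelled modified GMP (GMP, the granulocyte-monocyte progenitor). They had been enriched on CD117 beads, stained with antibodies carrying DNA tags, sorted and loaded on a 10x Genomics 3′ v2 assay, 10000 cells per sample. One mRNA library came from males and one from females, so sex and library cannot be told apart, and the labels do not say how many mice each held or how old they were. Tags from male and female cells shared 1 pooled antibody library. The labels name no treatment.

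Eosinophils are granulocytes that carry cationic proteins in specific granules: major basic protein, eosinophil peroxidase (Epx), the major basic protein homolog Prg3 and a family of ribonucleases (the Ear genes in the mouse). These granule proteins are made early, in marrow progenitors, before the cell matures. The lineage is known to depend on the transcription factors GATA1, PU.1 (Spi1) and C/EBP epsilon (Cebpe), and on interleukin-5, whose receptor is built from Il5ra and Csf2rb.

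The genes that the results turn on have the following places in the mouse genome (GRCm38.p6, RefSeq). Prg2 (chr2:84980461-84983632) and Prg3 (chr2:84988196-84996559) are neighbours that do not overlap. Epx (chr11:87863997-87875536) lies near Mpo (chr11:87793784-87804412), the gene of neutrophil myeloperoxidase. Ear1, Ear2, Ear6 and Cebpe lie on chromosome 14 and Ldhc on chromosome 7 (chr7:46861263-46878147). The 250 bases upstream of the start used in the RefSeq promoter table are shown for Epx (chr11:87875537-87875786, minus strand) and Prg3 (chr2:84987965-84988214, plus strand), because these 2 genes were found with Prg2 in most of the cells. For Prg3 that start lies just inside the gene span given above, so the last bases of its window overlap the span. Both windows are written 5′ to 3′, and capitals mark GATAA, the core of GATA sites, on either strand (TTATC on the other).
Epx: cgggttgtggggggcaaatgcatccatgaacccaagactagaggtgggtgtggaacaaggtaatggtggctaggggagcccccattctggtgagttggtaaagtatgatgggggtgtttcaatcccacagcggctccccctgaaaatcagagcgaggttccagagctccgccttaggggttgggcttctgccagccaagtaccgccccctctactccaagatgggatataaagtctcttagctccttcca
Prg3: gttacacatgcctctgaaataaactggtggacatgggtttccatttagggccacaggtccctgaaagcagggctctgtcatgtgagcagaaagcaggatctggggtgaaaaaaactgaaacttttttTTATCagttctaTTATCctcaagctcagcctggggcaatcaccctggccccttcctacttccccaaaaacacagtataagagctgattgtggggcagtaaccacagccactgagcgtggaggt
Prg3 holds 2 such matches and Epx none. Among 32851 RefSeq windows of 250 bases, 22.6% hold at least 1 match and 4.28% at least 2. A C/EBP-type motif, TTGCNNAA on either strand, is in 9.56% of windows and in neither of these. A match is a description of letters, and these windows were not tested for binding.

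The windows of Ear1 (chr14:43819640-43819889, minus strand) and Ear6 (chr14:51853518-51853767, plus strand) are shown because both genes had at most 1 UMI in the matched cells described below. Capitals mark the longest run that both share, 57 bases.
Ear1: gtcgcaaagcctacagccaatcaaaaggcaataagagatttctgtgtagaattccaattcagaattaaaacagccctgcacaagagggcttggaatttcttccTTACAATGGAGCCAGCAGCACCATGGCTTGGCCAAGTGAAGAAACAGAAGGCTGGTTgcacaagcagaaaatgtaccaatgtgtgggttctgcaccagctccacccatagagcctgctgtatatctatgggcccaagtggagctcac
Ear6: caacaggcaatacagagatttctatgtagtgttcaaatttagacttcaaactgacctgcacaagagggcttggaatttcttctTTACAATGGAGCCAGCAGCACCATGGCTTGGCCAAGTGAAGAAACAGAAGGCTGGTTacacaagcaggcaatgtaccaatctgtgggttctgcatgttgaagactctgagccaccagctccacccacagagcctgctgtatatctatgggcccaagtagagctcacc
In a global alignment 212 of 271 columns were identical. These windows lie upstream of the genes and say nothing of how reads were assigned. The Ear genes are paralogs, and how the counting treated reads shared by paralogs is not stated, so values of single Ear genes are given as uncertain.

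Prg2 counts, which chose the cells, are given as a description with no test. Prg2 was at 0 in 9162 cells, at 1 UMI in 1687, at 2 in 183 and at 3 to 9 in 41. The highest cells left out held 8 and 9 UMIs, and the lowest included held 10, 10 and 11. Within the 59 cells Prg2 ranged from 10 to 1496 UMIs with a median of 142, and these cells held 88.5% of all Prg2 UMIs in the data set. Low counts were spread widely: 17.7% of all cells had at least 1 Prg2 UMI, and 17.4% of cells labelled Mono, monocytic cells that should lack the gene (median depth 21935 UMIs per cell, against 14742 in the Prg2-high cells and 19438.5 in all cells). A single Prg2 UMI was therefore read as background. Between 23 and 34 UMIs there was no cell, and 32 cells held 100 or more.

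The authors' cluster labels put the 59 cells into 5 of 17 clusters. Multi-Lin, the multilineage progenitors, held 32 (11 female, 21 male), which is 1.83% of its 1752 cells (interval 1.25 to 2.57%). Gran-1 held 17 (9 female, 8 male), 0.716% of 2373 cells, and Gran-2 held 3. Myelo-1 held 4 and IG2 held 3, all of these IG2 cells male. The other 12 labels held none. Of 1052 Mono cells 0 passed, which allows a share of up to 0.285%, and of 546 HSCP-2 cells 0 passed, which allows up to 0.549%. These intervals and limits cover counting error only. Both libraries ranked Multi-Lin highest, and their intervals overlapped in all 5 labels. No label consisted of such cells alone.

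**Figure D1:**
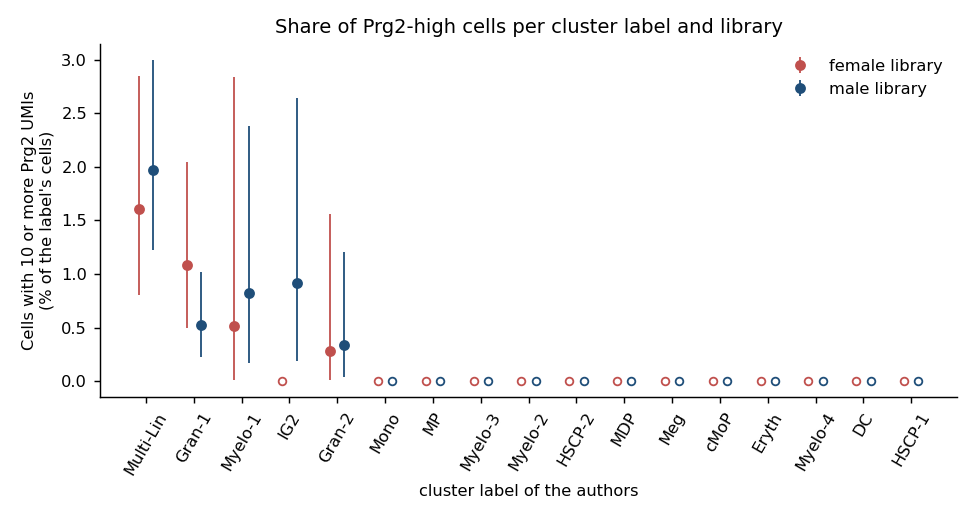
Share of each cluster label's cells that held 10 or more Prg2 UMIs (y axis, percent), by cluster label of the authors (x axis) and library (colour); bars are exact 95% binomial intervals and open circles mark labels with no such cell. Multi-Lin had the highest share in both libraries, 1.60% of female and 1.97% of male cells, and 12 labels had none.

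The depth of the 2 mRNA libraries was 91448433 UMIs (female) and 124967351 UMIs (male), with medians of 21202 and 18687 UMIs per cell. Of the cell barcodes, 45 occurred in both libraries, and 1 Prg2-high cell carried such a barcode. To keep label and depth from setting a difference, each Prg2-high cell was compared with the 10 cells of the same library and label with 0 Prg2 UMIs that were nearest in depth (590 matched cells, 220 female and 370 male). Median depth was 17353.5 against 17382 UMIs for female cells and 11834 against 11367 for male cells. UMIs were summed per library and group, and levels below are these sums without Prg2 in CPM, a gene's UMIs relative to all UMIs of the sum after edgeR's scaling. edgeR's quasi-likelihood test with the library as a block called 240 of 8772 genes (2.74%) at a Benjamini-Hochberg adjusted p under 0.05, 155 higher (1.77%) and 85 lower (0.969%) in the Prg2-high cells. Both libraries showed the same sign for 239 of the 240. The p-values measure the spread between these 2 libraries only. The sums leave 1 residual degree of freedom, and the spread was almost wholly shared between genes (262 prior degrees of freedom). Without cells of 10 or more UMIs of the basophil gene Mcpt8, 39 genes were called. This took out 17 Prg2-high cells and also the zero-Prg2 cells of that kind. The remaining 16 female and 26 male Prg2-high cells were matched anew, to 160 and 260 cells.

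Genes of the eosinophil granule were almost absent from matched cells. Of the 7 genes listed, Epx, Prg3, Ear1, Ear2 and Ear6 passed the filter on low counts. Epx, Ear1, Ear2 and Ear6 passed it through the Prg2-high cells alone, so their direction was fixed by the filter. Prg3 reached the filter's level in the female but not the male matched sum. It thus needed a Prg2-high sum to be tested, which set its direction in part. No count or median over the list is given. Summed, the list stood at 2100 CPM in female and 2846 in male Prg2-high cells, and at 8.95 and 5.85 in matched cells. The other 2 genes of the list, Ear10 and Rnase2a, had no UMI in the 59 cells.

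Epx, the peroxidase of the specific granule, had a UMI in 43 of the 59 cells, 16 of 22 female and 27 of 37 male. Its count per cell ranged from 0 to 72 UMIs with a median of 3. Of the 590 matched cells 3 held a single Epx UMI each, as did 1.52% of Mono cells. Epx was at 522 CPM in female and 820 in male Prg2-high cells, against 0 and 0.535 in matched cells, and the groups did not overlap. Set against 3 UMIs in all matched cells, the 646 UMIs of the Prg2-high cells gave a ratio of 2154 (exact 95% counting interval 734 to 10471). This interval, like that of Ear1 below, covers counting error in the pooled UMIs only, not the spread between cells or libraries. No p-value is given because the filter fixed the direction.

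Prg3, the major basic protein homolog, was found in 58 of the 59 cells, at 0 to 97 UMIs with a median of 20. It was at 1489 CPM in female and 1997 in male Prg2-high cells, against 5.56 and 3.75 in matched cells. This is a log2 change of 8.58 ± 0.15 (SE), a 382-fold difference. No p-value is given, because the gene needed a Prg2-high sum to pass the filter. In 5 cells Prg3 exceeded Prg2, and all 5 had under 50 Prg2 UMIs.

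The Ear ribonucleases were patchier. Ear6 had a UMI in 14 Prg2-high cells and none in the matched cells, so it was at least 180-fold higher against the limit of 3 UMIs over the matched group. Ear1 was found in 7 cells, 45 UMIs against 1 in matched cells, of which 44.4% lay in 1 cell (ratio 450, exact counting interval 76.8 to 18168). Ear2 was found in 11 cells, at 7.15 CPM in female and 69.1 in male Prg2-high cells against 2.08 and 1.43. At least 1 of the 3 was seen in 23 of the 59 cells. The edgeR call of Prg3 was kept under all 16 alternatives. Those of Epx, Ear6, Ear1 and Ear2 were kept under the 16, 14, 12 and 11 in which each could be tested. The filter fixed the direction of Epx and of the Ear genes, so their kept calls are no support. That of Prg3 was set in part, which limits what its kept calls add.

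Within the 59 cells Epx and Prg3 were set beside Prg2, whose counts chose the cells, as a description with no test. Epx stood at 127 CPM, here not normalized and with Prg2 in the total, in the 27 cells with 10 to 99 Prg2 UMIs, 488 in the 15 cells with 100 or more but under 400, and 1734 in the 17 cells with 400 or more. Prg3 stood at 808, 2316 and 2838 in the same bands. In the highest band 16 of 17 cells had an Epx UMI, and in the lowest 17 of 27 had one. Elane, the neutrophil elastase, ran the other way from the lowest band, at 6325, 3555 and 3870. Across the 59 cells, which share 2 libraries, Spearman's rho with the Prg2 share was 0.66 for Epx, 0.64 for Prg3 and -0.51 for Elane. In female and male cells apart, rho was 0.42 and 0.75 for Epx, 0.67 and 0.56 for Prg3, and -0.27 and -0.58 for Elane. For the Ear genes rho was 0.25 for Ear1, 0.37 for Ear2 and 0.23 for Ear6. Pooled Ear6 was lowest in the highest band (14.3 CPM, against 46.9 in the lowest), but the libraries differed. Across the bands Ear6 was at 91.2, 135 and 10.9 CPM in female and 13.7, 125 and 16.0 in male cells. Its rho was 0.15 in female and 0.40 in male cells. Cebpe did not follow Prg2 (rho 0.08).

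**Figure D2:**
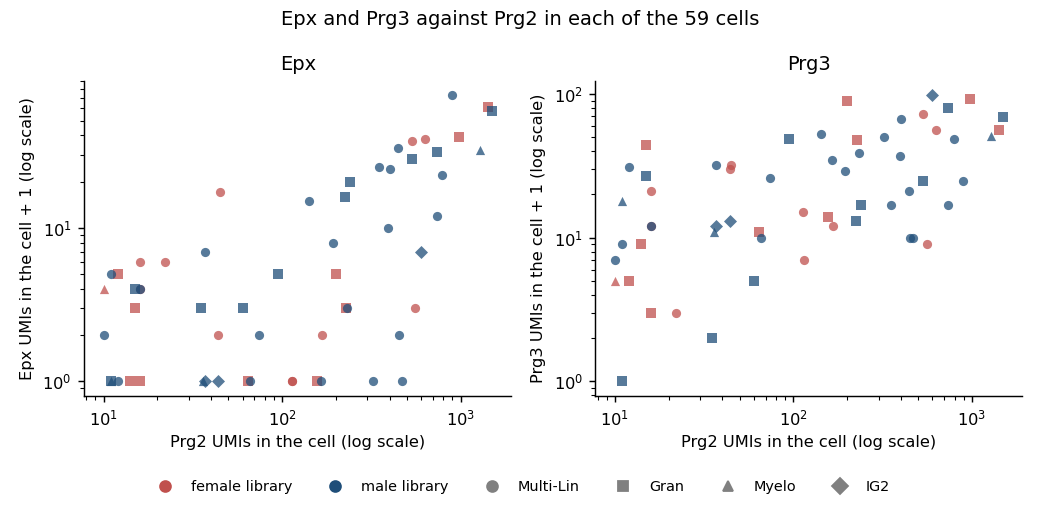
Epx (left) and Prg3 (right) UMIs plus 1 in each of the 59 cells (y axes, log scale) against Prg2 UMIs (x axes, log scale), coloured by library and shaped by cluster label. Cells with 400 or more Prg2 UMIs had median counts of 30 Epx and 50 Prg3 UMIs, and 16 cells had no Epx UMI.

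Receptors of mature eosinophils were low. Il5ra, the interleukin-5 receptor subunit, had 1 UMI in each of 7 Prg2-high cells (3 female, 4 male) and none in the 590 matched cells. Set against 3 UMIs over the matched group this is 23.3-fold higher, a value that leaves out the counting error of the 7 UMIs. Il5ra was too low for the edgeR test. Ccr3, the eotaxin receptor, had no UMI in the 59 cells. Siglecf, a lectin used to identify mouse eosinophils, was at 31.0 CPM in female and 36.5 in male Prg2-high cells against 16.9 and 17.1 in matched cells, a log2 difference of 0.99 ± 0.33 (SE) that did not pass the test (edgeR adjusted p = 0.0849). Csf2rb, the shared receptor chain, stood at 26.2 and 26.9 against 28.5 and 24.1. Of 10 listed receptor and surface genes 7 were tested, 2 rose and none fell, with a median log2 change of 0.15. Over all tested genes 1.77% rose and 0.969% fell, with a median of -0.0034. The 2 were Adgre1, the F4/80 antigen, which had 8 UMIs in 6 cells, and Il1rl1, the interleukin-33 receptor. Il1rl1 was at 14.3 and 13.4 CPM against 3.94 and 3.57. Both genes passed the filter on low counts through the Prg2-high cells alone. The filter thus fixed their direction, and their count is no result about the list. Each kept its call under 5 of 16 alternatives. Il1rl1 lost it under 7 and could not be tested under 4, and Adgre1 lost it under 2 and could not be tested under 9.

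Of 12 transcription factor genes of the lineage all were tested, 3 rose and 1 fell, with a median log2 change of -0.13. The shares over all tested genes were 1.77% and 0.969%, with a median of -0.0034. Cebpe had a UMI in all 59 cells. It was at 824 CPM in both the female and the male Prg2-high cells, against 234 and 200 in matched cells, with no overlap, and was 3.82-fold higher (log2 1.93 ± 0.11 SE, edgeR adjusted p = 1.81e-45). Ikzf2, which encodes the Ikaros family member Helios, was at 148 and 217 CPM against 53.5 and 58.0, 3.30-fold higher (edgeR adjusted p = 5.27e-22). Trib1, a pseudokinase that targets C/EBP alpha for breakdown, was at 21.4 and 32.6 against 9.96 and 7.49 (log2 1.68 ± 0.38 SE). Cebpa, the gene of C/EBP alpha, fell from 133 and 114 CPM in matched cells to 64.3 and 71.0 (log2 -0.85 ± 0.18 SE, edgeR adjusted p = 0.000445). Gata1 did not pass the test, at 26.2 and 26.9 CPM against 9.96 and 14.8 (edgeR adjusted p = 0.101), and had a UMI in 18 cells. Spi1, at 302 and 294 against 262 and 243, and Gata2, at 35.7 and 49.9 against 54.9 and 79.9, did not pass either. The calls of Ikzf2 held under all 16 alternatives and that of Cebpe under 15. Trib1 and Cebpa lost theirs, among other settings, without the cells rich in Mcpt8.

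The largest increases outside the lists, under the rule for named genes, were Ldhc, Rnase12, Ctsh and Arsb. Ldhc is a lactate dehydrogenase best known from testis. Its level was 97.7 and 171 CPM in female and male Prg2-high cells against 2.32 and 0.892 in matched cells. This is an 87.1-fold difference, and Ldhc was seen in 32 cells. Like Epx, Ldhc passed the filter on low counts through the Prg2-high cells alone, so its direction was fixed by the filter. Rnase12, another gene of the ribonuclease A family, was 11.2-fold higher and was seen in 50 cells. Ctsh, the protease cathepsin H, was 5.18-fold higher and Arsb, the lysosomal arylsulfatase B, 4.10-fold higher, at 155 and 154 CPM against 40.8 and 35.0. Cd63, a tetraspanin of lysosome and granule membranes named after its values were seen, was found in all 59 cells at 2108 and 2306 CPM against 738 and 693. Ctsh, Arsb and Cd63 kept their calls under 15 of 16 alternatives and lost them in the fit of the 4 Myelo cells. Rnase12 kept its call wherever it could be tested, under 15 alternatives. Ldhc kept its call under the 14 in which it could be tested, which is no support for its direction.

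Of 10 endoplasmic reticulum folding genes 3 rose and none fell, with a median log2 change of 0.28. Over all tested genes 1.77% rose and 0.969% fell, with a median of -0.0034. Calr, the chaperone calreticulin, rose to 2568 and 2707 CPM from 1713 and 1926, 1.45-fold (edgeR adjusted p = 3.29e-07). Calr lost its call in Gran cells alone and reversed in Myelo cells alone. Hspa5, the main chaperone of the compartment, did not pass, at 529 and 605 against 509 and 563. Manf was 1.32-fold higher but lost its call under 8 alternatives. None of 5 tested eicosanoid genes passed, and neither did any of 10 S-phase or 10 G2/M genes, whose median log2 changes were -0.11 and -0.19. Mcm6, a replication helicase subunit, was at 171 and 161 CPM against 172 and 167.

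**Figure D3:**
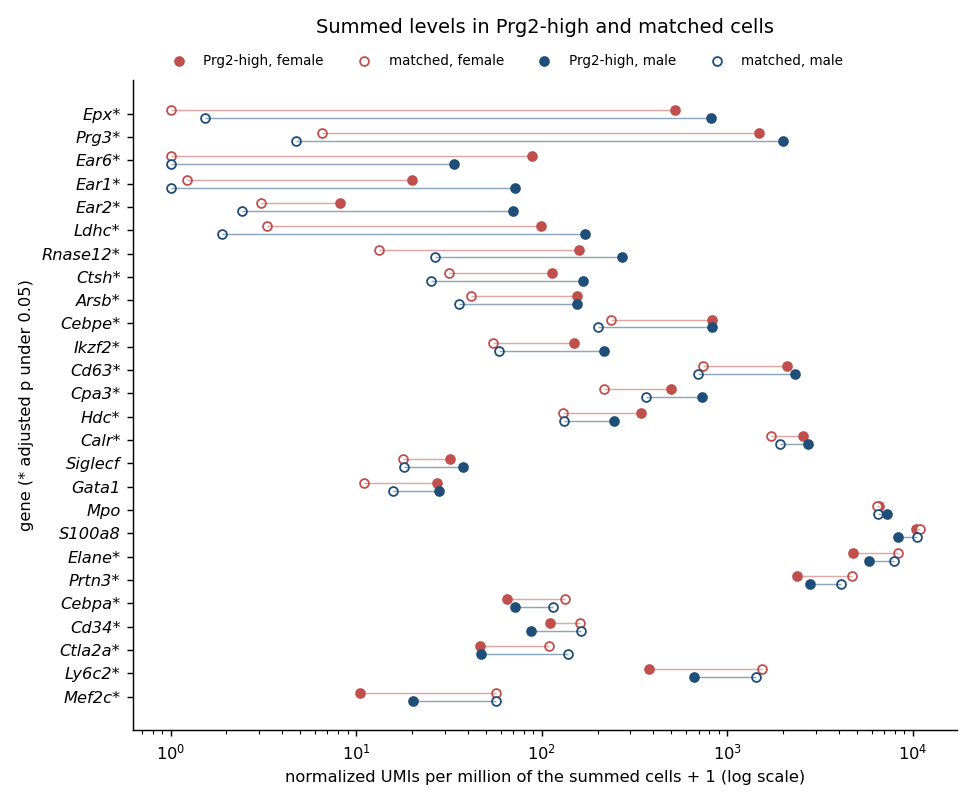
Normalized CPM plus 1 (x axis, log scale) of 26 genes (y axis) in the summed Prg2-high cells (filled) and their matched zero-Prg2 cells (open) of the female and male library; an asterisk marks an edgeR adjusted p under 0.05. The granule genes Epx, Prg3, Ear6 and Ear1 stand near the floor in matched cells, and Siglecf, Gata1, Mpo and S100a8 carry no asterisk. For Epx, Ear1, Ear2, Ear6 and Ldhc the filter on low counts fixed the direction, and for Prg3 it set the direction in part.

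Basophil and mast cell genes gave a mixed picture. Of 10 genes 7 were tested, 3 rose and 1 fell, with a median log2 change of 0.48. The shares over all tested genes were 1.77% and 0.969%, with a median of -0.0034. Cpa3, the mast cell carboxypeptidase, rose to 498 CPM in female and 730 in male Prg2-high cells from 215 and 362 (2.14-fold, edgeR adjusted p = 7.60e-18). Hdc, the histamine-forming enzyme, rose to 343 and 244 from 129 and 130. Prss34, a basophil protease, passed the test but moved in opposite directions, at 107 CPM against 265 in the female and 1225 against 407 in the male library. A single cell held 40.1% of its UMIs, and without the cells rich in Mcpt8 the call was lost. Mcpt8 itself was at 352 and 948 against 468 and 542 and did not pass. Its change differed by label, here in CPM not normalized. In Multi-Lin it was at 576 and 827 in Prg2-high cells, below the 1010 and 1158 of their matched cells. In Gran it was at 202 and 933 against 68.6 and 41.4, and 1 male cell held 126 of the 155 UMIs. Gzmb, the granzyme B gene, had no UMI in the 59 cells and 227 in the matched cells, at least 7.57-fold lower against 3 UMIs over the Prg2-high group. Of the 227, 68 lay in female and 156 in male matched Multi-Lin cells, so the value rests on the make-up of these matched cells. The mast cell protease genes Tpsb2 and Cma1 were also at 0 in the 59 cells. The summed list was at 1368 CPM in female and 3131 in male Prg2-high cells against 1182 and 1616. Its part in the other results was tested only by leaving out the Mcpt8-rich cells of both groups.

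Neutrophil, monocyte and progenitor genes were mostly lower or did not pass. For the counts below, 1.77% of all tested genes rose and 0.969% fell, with a median log2 change of -0.0034. The proteases Elane and Prtn3 of the neutrophil primary granule fell, Elane to 4730 and 5825 CPM from 8289 and 7897 (1.54-fold, edgeR adjusted p = 1.41e-11) and Prtn3 1.70-fold, with Ctsg also lower and Ms4a3 higher among 7 tested. Mpo did not pass, at 6562 and 7289 against 6442 and 6502. Of 11 tested genes of secondary granules and their regulators 1 fell and none rose; S100a8 stood at 10351 and 8347 against 10926 and 10505. Among 10 monocyte genes 2 fell: Ly6c2, which encodes the Ly-6C antigen, went from 1541 and 1435 CPM to 376 and 664 (2.88-fold, edgeR adjusted p = 3.33e-32), and Irf8, a factor of the monocyte branch, from 71.6 and 72.1 to 16.7 and 49.9. Irf8 lost its call under 7 of 16 alternatives, and both Irf8 and Elane lost theirs without the cells rich in Mcpt8. Of 9 tested multipotent progenitor genes 6 fell and none rose, with a median log2 change of -0.74. They included Adgrg1 (2.74-fold), Ctla2a (2.73-fold) and Cd34 (1.66-fold). Mef2c, a factor of myeloid and lymphoid progenitors, was among the 8 largest decreases, 3.73-fold. Among erythroid and megakaryocyte genes Itga2b, the CD41 integrin, rose 2.61-fold, and Apoe and Car2 fell. Dendritic and lymphoid lists gave 1 change each, Flt3 lower and Nkg7 higher, and none of 2 tested macrophage genes passed. Flt3, also among the 6 progenitor genes that fell, passed the filter on low counts through the matched cells alone, so its direction was fixed. Cd5l and Mrc1 (macrophage), Cd79a and Cd3e (lymphoid) and the haemoglobin genes Hba-a1 and Hbb-bt were at 0 in all 59 cells.

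Some of these changes differed between cluster labels, over which the matched comparison averages. The change was therefore compared between the 20 Gran-labelled (10 female, 10 male) and the 32 Multi-Lin-labelled Prg2-high cells, each against its own matched cells, in 1 edgeR fit of 8 sums with a label-by-group term. This fit was added after the values had been seen. It called 189 of 7421 genes (2.55%), 63 with a more positive change in Gran (0.849%) and 126 with a more negative one (1.7%). For 145 of them the 2 labels changed in opposite directions. Of those, 98 were lower in Gran-labelled and higher in Multi-Lin-labelled Prg2-high cells than in their matched cells, and 47 the reverse. These are signs of the estimates, and this fit tested neither label's change by itself. A call on the difference favours opposite signs. The share of opposite signs over all tested genes is not given, so these counts are a description only. Without the replicate block, 100 genes were called.

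Elane was at 15514 and 17674 CPM in matched Gran cells of the female and male library and at 4479 and 10499 in Gran-labelled Prg2-high cells. In Multi-Lin it went the other way, from 1529 and 1483 to 3491 and 3763, and the changes differed by a log2 of -2.46 ± 0.13 (SE, edgeR adjusted p = 1.88e-45). Mpo also fell in Gran and rose in Multi-Lin (log2 -0.38 and 0.76). Cd34 fell in Multi-Lin, from 290 and 269 CPM to 121 and 88.3, and rose in Gran, from 59.8 and 34.3 to 119 and 107 (edgeR adjusted p of the difference 2.27e-09). Prtn3 was lower in both, with log2 changes of -1.11 in Gran and -0.18 in Multi-Lin, and so was Irf8, at -2.41 and -0.66. Cpa3 rose more in Gran, from 39.0 and 28.0 to 378 and 383 CPM, than in Multi-Lin, from 437 and 763 to 748 and 914. Cebpe rose in both, to 879 and 628 CPM in Gran and to 830 and 1051 in Multi-Lin, from 308 and 285 and from 97.6 and 82.0. For Elane, Mpo and Cd34 the Prg2-high cells of the 2 labels lay closer to each other than their matched cells did. Whether they were closer beyond chance was not tested. Epx was at 569 and 998 CPM in Gran-labelled and 583 and 1020 in Multi-Lin-labelled Prg2-high cells, with no call for a difference (edgeR adjusted p = 0.634).

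**Figure D4:**
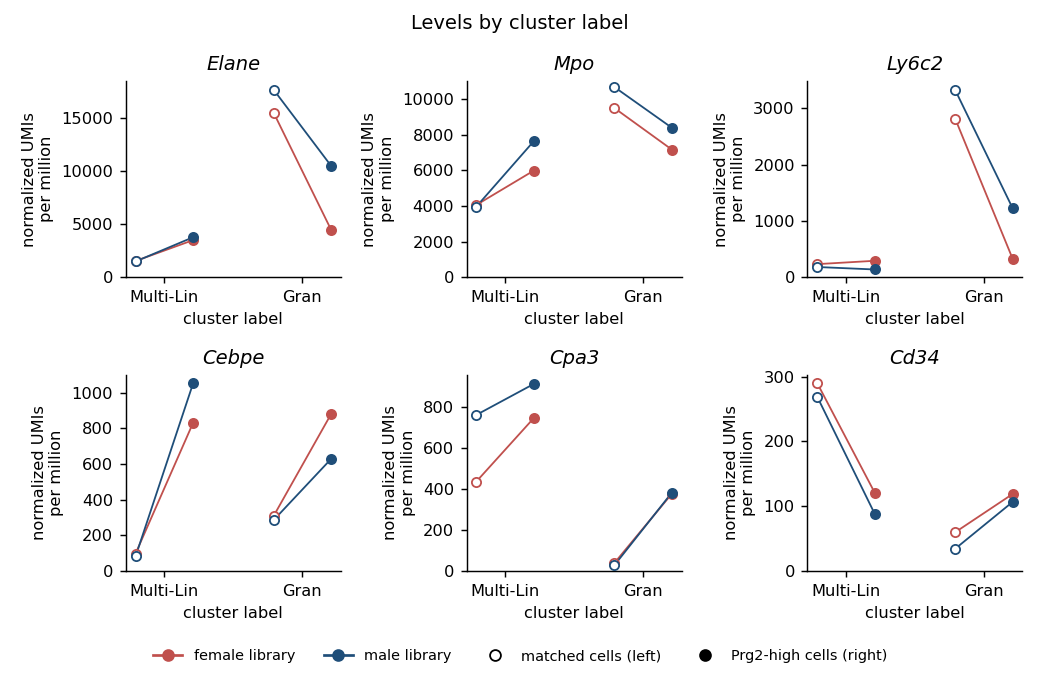
Normalized CPM (y axes, from 0) of 6 genes in matched cells (open, left of each pair) and Prg2-high cells (filled, right), by cluster label (x axes) and library (colour); lines join the groups of 1 library. Elane and Mpo fell in Gran and rose in Multi-Lin, Cd34 did the reverse, and Cebpe rose in both.

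Cells rich in Mcpt8, a basophil protease gene, were also present, and basophil and eosinophil precursors share surface and granule features. The 42 Prg2-high cells with under 10 Mcpt8 UMIs (16 female, 26 male) were therefore compared with the 253 cells that held 10 or more Mcpt8 and under 10 Prg2 UMIs (92 female, 161 male). Neither Prg2 nor Mcpt8 was tested. edgeR called 87 of 7029 genes (1.24%), 39 higher (0.555%) and 48 lower (0.683%) in the Prg2-high cells, all with the same sign in both libraries. The groups were cut on Prg2 and Mcpt8, so directions of genes that go with either were partly fixed by that choice, and no list count is given for the eosinophil or basophil lists. Epx was at 249 and 729 CPM against 2.83 and 1.89, and Prg3 at 1246 and 1892 against 8.48 and 21.5. Ldhc was 14.4-fold and Cebpe 4.98-fold higher, Cebpe at 749 and 879 CPM against 149 and 178 (edgeR adjusted p = 8.21e-08). Serpina3g, a protease inhibitor gene, was 4.12-fold higher. None of the 10 endoplasmic reticulum folding genes passed in this comparison, with a median log2 change of 0.067 against -0.0050 over all tested genes.

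Basophil and mast cell genes were low in these Prg2-high cells, from which the 17 cells rich in Mcpt8 had been left out. Prss34 was at 29.0 and 10.5 CPM against 4890 and 5570 in the Mcpt8-high cells. Fcer1a, the IgE-binding chain of the high-affinity receptor, had no UMI in these 42 Prg2-high cells and 588 in the Mcpt8-high cells, at least 31.7-fold lower against 3 UMIs over the group. Ms4a2, another chain of that receptor, was 5.91-fold lower and Cpa3 2.49-fold lower. Gata2, counted above among the transcription factor genes of the eosinophil lineage, was also low, at 32.3 and 26.2 CPM against 189 and 210. This is 6.90-fold lower (edgeR adjusted p = 3.83e-05). Cyp11a1, a steroid-forming enzyme, was 15.3-fold lower. Under all 7 alternatives Epx, Prg3, Ldhc, Cebpe, Prss34, Cyp11a1, Gata2, Ms4a2 and Cpa3 kept their calls, and DESeq2 alone lost Ear6, Serpina3g and Fcer1a. Epx and Ear6 passed the filter on low counts through the Prg2-high cells alone, and Cyp11a1 and Fcer1a through the Mcpt8-high cells alone. The filter thus fixed the direction of these genes, and their kept calls are no support. Prg3 reached the filter's level in the male but not the female Mcpt8-high sum, and Ldhc stood near that level in both.

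The 2 programmes overlapped in some cells. Of the 59 Prg2-high cells, 17 (6 female, 11 male) held 10 or more Mcpt8 UMIs, 6 also held 10 or more of Prss34, and 8 held 10 or more of both Epx and Mcpt8. Mcpt8, on the same unnormalized CPM scale as the Prg2 bands above, stood at 188 CPM in the lowest band, 413 in the middle and 1662 in the highest. The highest single Mcpt8 count among them was 126 UMIs, in a Gran-1 cell with 534 Prg2 and 27 Epx UMIs. No doublet caller was run, and whether these barcodes held 1 cell each was not tested. Of the 59 cells 3 lay above the 95th percentile of depth in their library.

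Surface antibody counts were compared per library as medians over cells, with no test, because an exact test over 2 libraries cannot go below a two-sided p of 0.5. CD117, the stem cell factor receptor on which the cells had been enriched, was lower in Prg2-high cells. Its median was 189.5 against 310.5 tag counts in the female and 121 against 178.5 in the male library, a log2 difference of -0.63 ± 0.11 (SD, n = 2 libraries). On the deposited log share within the cell the difference was -0.12. CD11b, a myeloid integrin, was higher, at 282.5 against 174.5 and 133 against 109.5 (0.49 ± 0.29 SD, n = 2), but lower (-0.16) when all zero-Prg2 cells of the 5 labels were taken without matching on depth. Ly-6G, the granulocyte antigen, was at 180.5 against 108.5 and 131 against 114 (0.46 ± 0.37 SD, n = 2). Ly-6C was at 985.5 against 1221.5 and 736 against 857.5 (-0.26 ± 0.06 SD, n = 2).

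The antibodies, too, differed by label. Gran-labelled Prg2-high cells had median Ly-6C counts of 955 and 806, against 2506.5 and 2746.5 in matched Gran cells (log2 -1.58 ± 0.27 SD, n = 2), the same direction as Ly6c2 mRNA in Gran. In Multi-Lin the medians were 1090 against 934.5 and 653 against 643.5 (0.12 ± 0.14 SD). CD117 was lower in Multi-Lin, at 190 against 363 and 91 against 186.5 (-0.98 ± 0.07 SD, n = 2). In Gran it was lower in the female library only, at 180 against 265.5, and stood at 147.5 against 144 in the male library. Whether the labels differ in these antibodies was not tested.

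**Figure D5:**
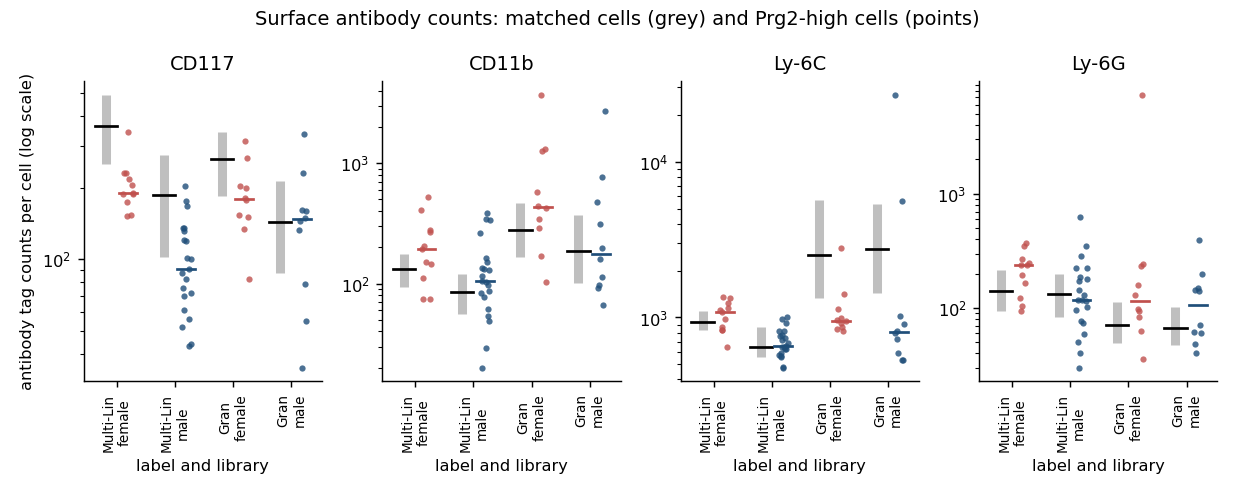
Antibody tag counts per cell (y axes, log scale) for 4 surface proteins in matched cells (grey bar, quartiles; black line, median) and single Prg2-high cells (points; coloured line, median), by label and library (x axes). Ly-6C medians of Gran-labelled Prg2-high cells were 955 and 806, below the lower quartiles 1328 and 1439 of their matched cells.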

How the data were processed

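The deposited count table gives whole-number UMI counts (28692 gene IDs, 11132 cells), and the authors give each cell 1 of 17 cluster names. Per the submitters' processing notes, Cell Ranger 2.1.0 and build mm10 were used; for annotation, cell calling and clustering nothing is stated. The authors also deposited antibody counts, and the same on a natural log scale; all 44528 of these log values equal the log of (count + 1) over (cell sum + 1) within 1e-08. No doublet caller was run.

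The cells and gene lists were chosen with earlier results of these data known. Symbols were matched for 28339 IDs. UMIs were summed per library and group and tested with edgeR 4.0.16 (TMM, filterByExpr, library as block, quasi-likelihood, Benjamini-Hochberg), in R 4.3.3, and DESeq2 1.42.0 was an alternative. The code was tested on simulated data. A library number pairs the groups, because both came from the same library. A fold against a group at 0 was taken against 3 UMIs over that group, and leaves out the counting error of the other group. Antibody differences are log2 ratios of median (count + 1).

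Named genes were all measured members of the 3 eosinophil lists, up to 3 members of each other list by mean CPM, and the 8 largest changes each way (6 against Mcpt8-high cells). These needed a call, a mean CPM of 20 or more, the same sign in both libraries and, for increases, a UMI in 10 cells. Cd63, Hdc, Irf8, Ctsg, Ms4a3, Gzmb and the genes of the label comparison named outside this rule were chosen after their values were seen. Members of lists are also named where a count of 5 or fewer is given. Alternatives covered scaling, tool, block, filter, matching, Prg2 minimum (5 or 20), label, thinning to 4000 UMIs, depth and shared barcodes. Leaving out the Mcpt8-rich cells, robust estimation of the spread and the label comparison were chosen after seeing the data. Of the genes this rule gives, 1 is not reported here.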

Additional observations from a re-analysis of the deposited data

Results flagged for a closer look

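Mcpt8 and Prss34, 2 basophil protease genes, moved in opposite directions in the 2 libraries when Prg2-high cells were set against their matched cells. The log2 ratio of Mcpt8 was -0.41 for female and 0.81 for male cells. That of Prss34 was -1.30 for female and 1.59 for male cells. The difference between the libraries was not tested. Among the Prg2-high cells, 1 of 22 female and 5 of 37 male cells held 10 or more Prss34 UMIs, and the highest single cell held 40.1% of all Prss34 UMIs.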

How the results depend on the processing

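For the comparison with matched cells, 240 genes were called. DESeq2 called 38, all among the 240, the fit with no replicate block 124 (122 shared), all zero-Prg2 cells without matching 366, Gran cells alone 97, Myelo cells alone 11, cells thinned to 4000 UMIs 60 and the fit without Mcpt8-rich cells 39. The other 9 alternatives gave 186 to 360 genes. Shared prior degrees of freedom were 262 in the main estimate and 8.7 without the Mcpt8-rich cells; the cause of the lower counts was not tested. Against Mcpt8-high cells 87 genes were called, and DESeq2 called 18, the fit with no filter on low counts 198 and Multi-Lin cells alone 200. The label comparison called 189 genes and, with no replicate block, 100. Leaving out a library leaves no residual degrees of freedom, so it gives values only. Of 32 named genes called against matched cells, DESeq2 kept 16 of the 22 for which it gave an adjusted p, the block-free fit 26 of 32 and the thinned cells 19 of 28. None of the 32 reversed under these 3.

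Multi-Lin cells alone reversed Elane (1.28), Ly6c2 (0.022), S100a8 (0.31), S100a9 (0.36), Mcpt8 (-0.46) and Prss34 (-0.44). Gran cells alone reversed Gata2 (2.73), Mpo (-0.36), Cd34 (1.26), Sox4 (0.079), Adgrg1 (0.36), Ctla2a (0.47) and Apoe (0.86). Myelo cells alone, 4 Prg2-high cells, reversed Cebpa (0.76), Calr (-0.081), Manf (-0.64), Mpo (-0.28), Sox4 (1.01) and Apoe (1.69). All zero-Prg2 cells without matching reversed Gata2 (0.38), Mpo (-0.22), Sox4 (0.17) and Apoe (0.46). With 3 matched cells per Prg2-high cell, Mcpt8 (-0.30) and Prss34 (-0.24) reversed. Without Mcpt8-rich cells S100a8 (0.00049) and S100a9 (0.0072) reversed at values near 0. Leaving out a library gave -0.41 to 0.81 for Mcpt8 and -1.30 to 1.59 for Prss34. All these are log2 changes.

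CD117, -0.63 in the main comparison, was -0.12 on the deposited log share (as log2), -0.46 after centring within the cell, -0.98 in Multi-Lin and -0.26 in Gran. CD11b (0.49) was -0.16 without matching. Ly-6C (-0.26) was -0.14 on the log share, -0.48 centred, -1.005 without matching, 0.12 in Multi-Lin and -1.58 in Gran. Ly-6G (0.46) was 0.89 on the log share. Depth limits low genes: Il5ra gave 7 UMIs in 59 cells, and a gene at 0 in them is below 3 UMIs over the group, for counting error only.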
